A study of Homo sapiens with 12 samples.

Results

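The FOS and JUN genes code for the proteins of the transcription factor AP-1, and all 7 of them, FOS, FOSB, FOSL1, FOSL2, JUN, JUNB and JUND, were taken by name from the 62710 genes of the count table. Each of the 7 had 1 identifier and passed the filter on low counts, as did 20593 genes in all. The cells were HEK293T, a transformed human embryonic kidney line, in poly(A) RNA-seq of 12 libraries, 2 biological replicates for each of 6 groups. Each culture was transfected with 200 ng of a vector for an effector and 200 ng of a vector for a guide RNA, and RNA was taken 48 hours later, so every library, the control included, held a dCasRx protein and a guide. The effectors were dCasRx, an RNA-targeting nuclease made catalytically dead, dCasRx-RBM25, a fusion with RBM25 (a splicing factor), and RBFOX1N-dCasRx-C, whose name places dCasRx between parts of RBFOX1, another splicing factor. With the nontargeting guide (NT) these made up the groups dCasRx_NT, RBM25_NT and RBFOX1N_NT. A guide meant to activate exon 10 of MAPT gave RBM25_MAPT and RBFOX1N_MAPT, and a guide meant to repress exon 13 of CD46 gave RBM25_CD46. Neither of those guides was combined with dCasRx alone, and the transfection was transient, so the share of cells that held the vectors was not measured.

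AP-1 is a dimer of basic leucine zipper proteins. JUN proteins pair with each other or with a FOS protein, FOS proteins pair with JUN proteins and not with each other, and the dimers bind TGANTCA and related DNA sequences. FOS, FOSB, JUN and JUNB are immediate early genes, which serum, growth factors and stress switch on within minutes by way of MAP kinases, while JUND is made more steadily in many cells. FOS and FOSB carry strong activation domains, which FOSL1 (FRA1) and FOSL2 (FRA2) lack, and JUNB is a weaker activator than JUN at many targets.

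In short, FOSL2 and FOSL1 were the members that differed most between the effectors. FOSL2 stood at 28.2 to 33.8 CPM (counts scaled to library size) in the 4 RBFOX1N libraries and at 12.2 to 15.5 CPM in the 8 others. Of all tested genes, 16.6% had the 4 RBFOX1N libraries above the 6 RBM25 libraries, and the share above all 8 others was not counted. FOSL1 stood at 12.3 to 17.1 CPM with RBFOX1N-dCasRx-C, at 6.30 and 9.38 CPM with dCasRx and at 2.87 to 5.24 CPM with dCasRx-RBM25. That order was shown by 1.93% of tested genes. FOS, JUN and JUNB were higher in all 10 libraries with a fused effector than in either dCasRx_NT library, an order that 5.99% of tested genes showed. JUND showed no difference that passed the test.

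The genes lie on 5 chromosomes (GRCh38, GENCODE 29). FOS is on chromosome 14 at 75278774 to 75282230 (plus strand), FOSB on chromosome 19 at 45467995 to 45475179 (plus), FOSL1 on chromosome 11 at 65892049 to 65900573 (minus) and FOSL2 on chromosome 2 at 28392448 to 28417312 (plus). JUN is on chromosome 1 at 58780788 to 58784327 (minus), JUNB on chromosome 19 at 12791496 to 12793315 (plus) and JUND on chromosome 19 at 18279760 to 18281622 (minus). JUN and JUNB have 1 exon in every coding transcript and JUND at most 2, against 4 or 5 in the largest FOS family transcripts. FOSB overlaps ERCC1 and JUNB overlaps HOOK2, each on the opposite strand, and FOSL2 overlaps an antisense RNA (FLJ31356) and AC104695.3, an RNA of its own strand. How the counting treated strand is not stated in the labels, so reads of FOSB, JUNB and FOSL2 cannot be told apart from those of the overlapping genes.

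The promoters are shown because FOS, JUN and JUNB moved together in the data below, FOSL2 moved most clearly and JUND is the member without a call. They come from the RefSeq promoter table (GRCh38.p14), which had an entry for 6 of the members; FOSL1 was not matched. Sequences run 5' to 3' on the strand of the gene and stop before the nearest annotated exon downstream. The FOSL2 line lies upstream of the first exon of every annotated coding transcript but within the gene as annotated, in an intron of a noncoding transcript that starts farther upstream. They are chr14:75278578-75278773 (plus) for FOS, chr2:28392608-28392801 (plus) for FOSL2, chr19:12791236-12791485 (plus) for JUNB and chr19:18281623-18281872 (minus) for JUND. For JUN, whose 250 bases before the RefSeq start lie within the annotated gene, 28 bases around the match are shown, at chr1:58784097-58784124 (minus). Capitals mark matches to TGACGTCA, known as the cyclic AMP response element, to its variant TGACATCA, to the shorter core TGACG, which TGACGTCA contains, and to TATAAA, the core of the TATA-type promoter element. Each was searched on both strands, as was TGANTCA, and a match on the opposite strand reads CGTCA in the printed line. None of the 6 windows held TGANTCA.
FOS: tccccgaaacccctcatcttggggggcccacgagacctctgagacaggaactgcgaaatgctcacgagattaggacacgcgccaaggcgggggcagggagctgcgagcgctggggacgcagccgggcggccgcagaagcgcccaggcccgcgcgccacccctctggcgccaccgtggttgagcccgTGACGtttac
FOSL2: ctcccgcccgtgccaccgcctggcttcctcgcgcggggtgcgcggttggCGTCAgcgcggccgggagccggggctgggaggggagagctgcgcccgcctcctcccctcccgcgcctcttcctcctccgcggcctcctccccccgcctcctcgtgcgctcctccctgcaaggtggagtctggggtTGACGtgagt
JUN: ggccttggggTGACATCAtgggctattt
JUNB: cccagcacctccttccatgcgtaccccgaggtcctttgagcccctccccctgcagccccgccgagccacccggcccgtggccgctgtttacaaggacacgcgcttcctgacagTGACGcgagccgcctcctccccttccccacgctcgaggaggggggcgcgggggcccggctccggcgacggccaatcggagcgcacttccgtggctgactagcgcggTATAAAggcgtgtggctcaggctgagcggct
JUND: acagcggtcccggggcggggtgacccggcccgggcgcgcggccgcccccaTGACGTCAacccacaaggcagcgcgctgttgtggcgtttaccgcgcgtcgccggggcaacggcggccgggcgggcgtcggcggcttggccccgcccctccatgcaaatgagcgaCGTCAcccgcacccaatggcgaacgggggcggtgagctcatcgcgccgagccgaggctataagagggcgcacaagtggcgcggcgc
Within the 250 bases before the RefSeq start, TGACG began 64 bases before it in FOS, 60 in FOSB, 66 and (opposite strand) 201 in FOSL2, 123 in JUN, 137 in JUNB and (opposite strand) 86 in JUND. In JUND it was also held, on both strands, by the TGACGTCA that began 200 bases before the start. At least 1 TGACG was held by 21.2% of all 35116 promoters in the table, TGACGTCA by 1.65%, TGACATCA by 2.37%, TATAAA by 10.7% and TGANTCA by 6.57%. TATAAA began 33 bases before the start of FOS, within an annotated exon and so beyond the line shown, 30 before FOSB and 31 before JUNB. TGACATCA, the site by which JUN is known to be bound by JUN and ATF2, began 67 bases before the JUN start. These are matches of letters and no measure of binding, which was not assayed.

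The 12 libraries held 32487927 to 53985468 counts. The share of counts from RBM25 was 4.08% to 5.69% in the 6 libraries labelled dCasRx-RBM25 and 0.020% to 0.038% elsewhere, which checks that label. All 7 HEK293T markers were present, from PAX2 at 5.29 to 11.5 CPM to VIM at 645 to 862 CPM. Of these, 4 passed an edgeR adjusted p of 0.05 in at least 1 comparison of effectors. Of all genes, 7.62% to 22.6% passed in such a comparison. KRT8 was higher in RBFOX1N_NT than in dCasRx_NT and RBM25_NT (log2 1.18 and 1.23) and in RBFOX1N_MAPT than in RBM25_MAPT (1.27), and PAX2 was lower with RBFOX1N-dCasRx-C than with dCasRx-RBM25 (-0.82, and -0.60 under the MAPT guide). NEFL and NEFM were lower in RBFOX1N_MAPT than in RBM25_MAPT (-0.43 and -0.39), and the part of such shifts in the results below was not tested. Of 12 markers of other cell types, COL1A1 stood at 20.3 to 34.4 CPM, COL3A1 at 0.716 to 2.03 CPM and the other 10 below 1 CPM. The sum of the 12 was 31.7 to 33.4 CPM with dCasRx, 24.1 to 37.1 with dCasRx-RBM25 and 22.6 to 28.7 with RBFOX1N-dCasRx-C. By the same test, COL1A1 and COL3A1 were lower in RBFOX1N_NT than in RBM25_NT (log2 -0.48 and -0.93). Between RBFOX1N_MAPT and RBM25_MAPT, COL3A1 was lower (-0.82) and ALB higher (2.2). The dCasRx_NT libraries stood apart from the rest on the second principal component, at 30.3 (replicate 1) and 70.1 (replicate 2) against -15.2 to -3.77, so results against them are also given without each. Replicates of the RBM25 groups differed along the GC content of genes, with a correlation over 19649 genes between GC percent and the log2 ratio of replicate 1 to replicate 2 of 0.501 in RBM25_MAPT, 0.232 in RBM25_NT and 0.21 in RBM25_CD46, against 0.116 in dCasRx_NT and -0.046 and near 0 in the RBFOX1N groups. JUND, with 69.7% GC in its longest transcript, and JUNB, with 64.9%, are the richest in GC of the members.

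Per kilobase of exon, the JUN family was far more abundant than the FOS family. The median over the 12 libraries was 196 CPM per kb for JUN, 88.8 for JUND and 26.4 for JUNB, and the ranges of these 3 genes, 121 to 250, 56.7 to 130 and 14.6 to 30.7, overlapped for JUN and JUND only. The FOS family followed with 4.34 CPM per kb for FOS, 3.06 for FOSL1, 2.04 for FOSL2 and 1.35 for FOSB, and these neighbours overlapped in their ranges. JUN alone made up 50.9% to 64.8% of the summed level per kb of the 7 genes. Raw counts in a library were 109 to 668 for FOSL1 and 232 to 454 for FOSB, the smallest of the members, and 15607 to 33890 for JUN.

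**Figure D1:**
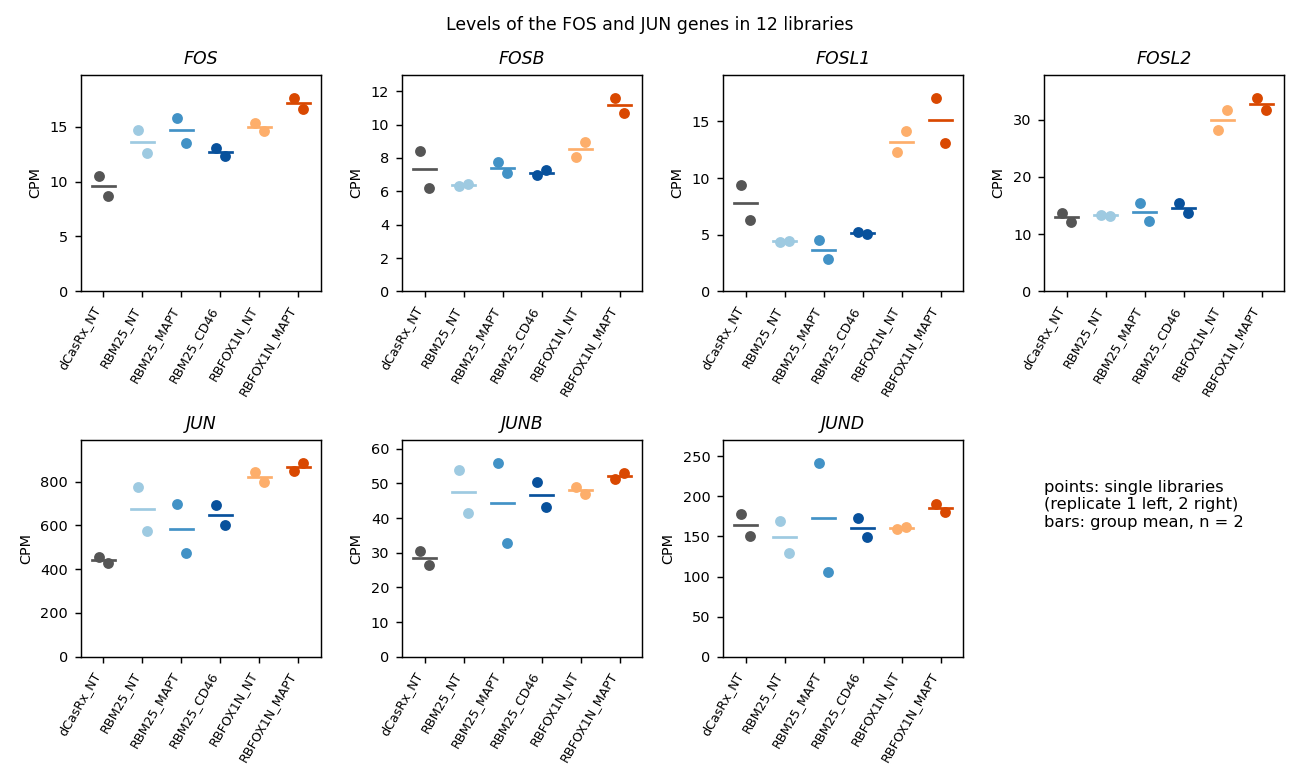
CPM (vertical axes, each from 0) of the 7 genes in each of the 12 libraries, grouped by effector and guide; points are single libraries and bars the mean of 2. The 4 RBFOX1N libraries lie above all others for FOSL1, FOSL2 and JUN, and the 2 RBM25_MAPT libraries lie far apart for JUND, at 242 and 106 CPM. For 16.6% of all tested genes the 4 RBFOX1N libraries lie above the 6 RBM25 libraries, and the share above all others was not counted.

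The first comparison, of RBM25_NT with dCasRx_NT, asks what the fused RBM25 changed without a target. FOS, JUN and JUNB rose and FOSL1 fell, by the quasi-likelihood test of edgeR with Benjamini-Hochberg adjustment over all 20593 genes. That is 3 of 7 members higher and 1 lower, where 7.62% of all genes were called (3.88% higher and 3.74% lower). The calls of the members lay near the threshold: 1 of the 4 was left when only these 2 groups were fitted, 0 without RBM25_NT replicate 1 or RBFOX1N_MAPT replicate 2, 1 without dCasRx_NT replicate 2, either RBFOX1N_NT library or RBFOX1N_MAPT replicate 1, and 2 without dCasRx_NT replicate 1. Over all genes the 1570 calls became 636 with only the 2 groups, 368 without RBM25_NT replicate 1, 599 without dCasRx_NT replicate 2 and 2048 without dCasRx_NT replicate 1.

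In RBFOX1N_NT against dCasRx_NT, 5 of 7 members were higher and 0 lower: FOS, FOSL1, FOSL2, JUN and JUNB. Of all genes, 10.8% were called there, 7.52% higher and 3.25% lower. The count was 2 without dCasRx_NT replicate 2 or RBFOX1N_NT replicate 1 and 3 without RBFOX1N_NT replicate 2. The 2217 calls over all genes fell alongside, to 849, 975 and 624 in those settings. The median log2 fold change of the 7 was 0.75, beside -0.01 over all genes. Both comparisons use the same dCasRx_NT libraries.

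Between the fused effectors, FOSL1 and FOSL2 were higher in RBFOX1N_NT than in RBM25_NT, 2 of 7 members where 16.7% of all genes were called, 9.63% higher and 7.03% lower. Under the MAPT guide, in 4 other libraries, FOSB, FOSL1, FOSL2 and JUN were higher with RBFOX1N-dCasRx-C than with dCasRx-RBM25, 4 of 7 members where 22.6% of all genes were called, 12% higher and 10.6% lower. No member was lower in either. The median of the 7 was 0.28 and 0.57 on the log2 scale, beside -0.01 over all genes in each. In bulk RNA, a change in the share of cells that express a gene and a change in RNA per cell cannot be told apart.

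**Figure D2:**
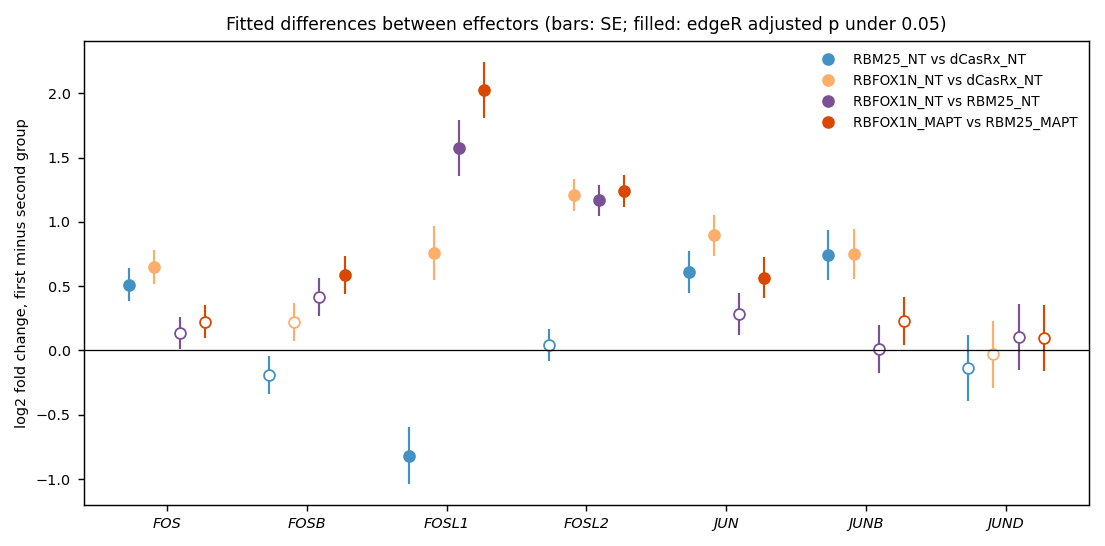
Fitted log2 fold change (vertical axis, first minus second group) of the 7 genes in the 4 comparisons of effectors; bars are standard errors and filled points passed an edgeR adjusted p of 0.05. FOSL1 is the member with calls on both sides of 0, at -0.82 for RBM25_NT and 0.76 for RBFOX1N_NT against dCasRx_NT.

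FOS, the founding partner of JUN in AP-1, was at 10.49 and 8.66 CPM in dCasRx_NT and at 14.7 and 12.6 CPM in RBM25_NT. It was at 15.8 and 13.5 CPM in RBM25_MAPT, 13.1 and 12.3 in RBM25_CD46, 15.4 and 14.6 in RBFOX1N_NT and 17.6 and 16.6 in RBFOX1N_MAPT. The dCasRx_NT libraries were the lowest, and the libraries of the fused effectors overlapped. FOS was 1.43-fold higher in RBM25_NT than in dCasRx_NT (log2 0.51, SE 0.13; edgeR adjusted p 0.0295) and 1.57-fold higher in RBFOX1N_NT (log2 0.65, SE 0.13; edgeR adjusted p 0.00687). Without dCasRx_NT replicate 2 these differences were 0.36 and 0.51 on the log2 scale and did not pass (edgeR adjusted p 0.219 and 0.0823), and without replicate 1 they were 0.67 and 0.80 and passed. The first was also lost without RBM25_NT replicate 1 (edgeR adjusted p 0.221), and without either RBFOX1N_MAPT library it was just over the threshold (0.0572 and 0.0502), as was the second without RBFOX1N_NT replicate 1 (0.0536). In fits of only the 2 groups compared, the RBM25_NT difference did not pass (edgeR adjusted p 0.13) and the RBFOX1N_NT difference did (0.0262). FOS did not pass between RBFOX1N_NT and RBM25_NT (log2 0.14, 95% interval -0.13 to 0.41).

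FOSB, a close relative of FOS, was at 8.42 and 6.22 CPM in dCasRx_NT, 6.32 and 6.46 in RBM25_NT, 7.76 and 7.09 in RBM25_MAPT and 6.98 and 7.25 in RBM25_CD46. It was at 8.07 and 8.96 CPM in RBFOX1N_NT and at 11.6 and 10.7 in RBFOX1N_MAPT. All 4 RBFOX1N libraries lay above all 6 RBM25 libraries, and the dCasRx_NT pair spanned the gap between them. Under the MAPT guide FOSB was 1.5-fold higher with RBFOX1N-dCasRx-C than with dCasRx-RBM25 (log2 0.59, SE 0.15; edgeR adjusted p 0.0115). This did not pass without RBM25_MAPT replicate 2 (edgeR adjusted p 0.0537) or RBFOX1N_MAPT replicate 1 (0.0946). Under the nontargeting guide the difference was 0.42 (SE 0.15; edgeR adjusted p 0.069), and passed in a fit of only those groups (0.0452), without dCasRx_NT replicate 1 or 2 (0.0357 and 0.0303) and with offsets for GC content (0.0282).

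FOSL1, which codes for FRA1, a FOS protein without the activation domain of FOS, took opposite sides of the control with the fused effectors. It was at 9.38 and 6.30 CPM in dCasRx_NT, at 4.4 and 4.48 in RBM25_NT, 4.50 and 2.87 in RBM25_MAPT and 5.24 and 5.09 in RBM25_CD46. With RBFOX1N-dCasRx-C it was at 12.3 and 14.2 CPM under the nontargeting guide and at 17.1 and 13.1 under the MAPT guide. All 6 RBM25 libraries lay below and all 4 RBFOX1N libraries above both dCasRx_NT libraries, an order that 1.93% of all tested genes showed. FOSL1 was lower in RBM25_NT than in dCasRx_NT by a log2 fold change of -0.82 (SE 0.22; 0.568 of the control level; edgeR adjusted p 0.0377) and 1.69-fold higher in RBFOX1N_NT (log2 0.76, SE 0.21; edgeR adjusted p 0.0361).

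Each of these differences from dCasRx_NT rested on the control library that was kept. Without replicate 1 of dCasRx_NT, the fall in RBM25_NT was -0.49 (edgeR adjusted p 0.199) and the rise in RBFOX1N_NT 1.08 (0.00797), and without replicate 2 they were -1.09 (0.017) and 0.49 (0.249). The fall also did not pass without either RBM25_NT library (edgeR adjusted p 0.201 and 0.115), nor the rise without either RBFOX1N_NT library (0.0859 and 0.221). Leaving out 1 library of another group moved both calls across the threshold in some cases. In fits of only the 2 groups compared, neither the fall nor the rise passed (edgeR adjusted p 0.063 and 0.0563). The difference between the fused effectors, which does not involve dCasRx_NT, was 2.98-fold under the nontargeting guide (log2 1.57, SE 0.22; edgeR adjusted p 0.000372) and 4.07-fold under the MAPT guide (log2 2.02, SE 0.22; edgeR adjusted p 5.68e-05). It passed in each of 18 other settings for either guide, with log2 values of 1.46 to 1.67 and 1.74 to 2.39.

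FOSL2, which codes for FRA2, was at 13.7 and 12.2 CPM in dCasRx_NT, 13.4 and 13.2 in RBM25_NT, 15.4 and 12.3 in RBM25_MAPT and 15.5 and 13.7 in RBM25_CD46. It was at 28.2 and 31.6 CPM in RBFOX1N_NT and at 33.8 and 31.7 CPM in RBFOX1N_MAPT. The RBFOX1N libraries stood clear of the others, and the RBM25 and dCasRx libraries overlapped. The 4 RBFOX1N libraries lay above the 6 RBM25 libraries for 16.6% of all tested genes. FOSL2 was 2.31-fold higher in RBFOX1N_NT than in dCasRx_NT (log2 1.21, SE 0.12; edgeR adjusted p 6.76e-05), 2.25-fold higher than in RBM25_NT (log2 1.17, SE 0.12; 5.03e-05) and, under the MAPT guide, 2.36-fold higher (log2 1.24, SE 0.12; 2.97e-05). All 3 differences passed in each of 18 other settings. For RBM25_NT against dCasRx_NT the log2 difference was 0.04 with a 95% interval of -0.23 to 0.31, so a change within those bounds is not excluded.

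These shifts changed the make-up of the FOS family. Per kb, FOSL1 made up 42.7% and 37.8% of the summed FOS family in the dCasRx_NT libraries, 17.5% to 27.8% in the 6 RBM25 libraries and 37.7% to 42.5% in the 4 RBFOX1N libraries. FOS made up 27.8% and 30.3% with dCasRx, 39.1% to 48% with dCasRx-RBM25 and 25% to 28.5% with RBFOX1N-dCasRx-C. FOSL2 made up 16.5% and 19.3%, 19% to 21.1% and 22.2% to 24.5%. The summed FOS family was 8.69 to 11.6 CPM per kb in the dCasRx and RBM25 libraries and 16.6 to 21.3 in the RBFOX1N libraries. Per kb of the union of exons, FOS was thus the highest of the FOS family in the RBM25 libraries, and FOSL1 in the others. This order rests on the lengths used, which join the exons of all annotated transcripts, 3238 nt for FOS and 1887 nt for FOSL1. In CPM, without a length, FOS was above FOSL1 in every library.

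**Figure D3:**
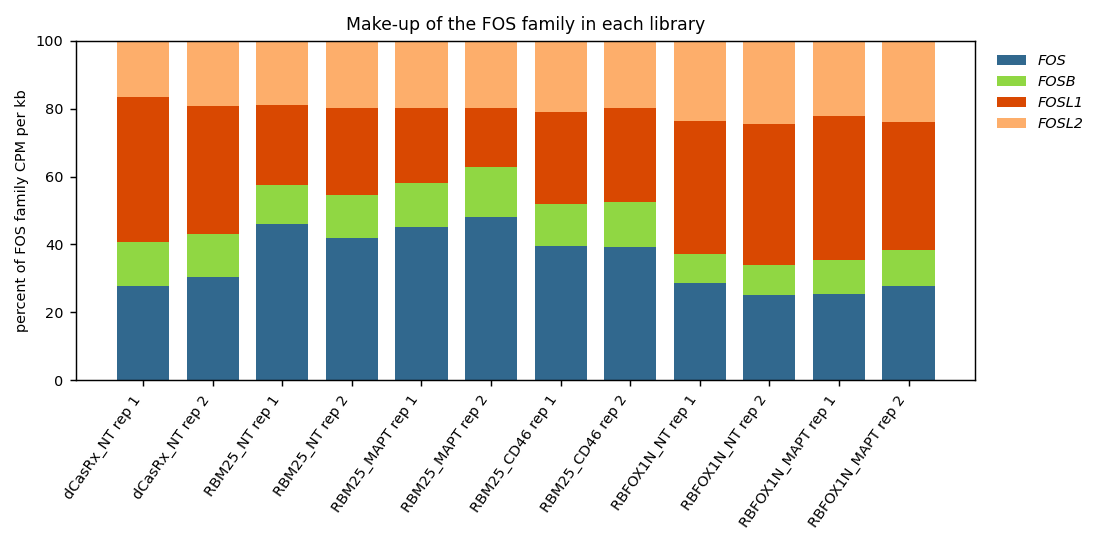
Share of each FOS family gene in the summed CPM per kb of the 4 genes (vertical axis, percent) in each of the 12 libraries. FOSL1 takes 17.5% to 27.8% in the RBM25 libraries and 37.7% to 42.7% in the 6 others.

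JUN, the AP-1 subunit that pairs with every member, was at 455 and 428 CPM in dCasRx_NT and at 774 and 574 in RBM25_NT. It was at 697 and 473 CPM in RBM25_MAPT, 692 and 604 in RBM25_CD46, 843 and 797 in RBFOX1N_NT and 847 and 885 in RBFOX1N_MAPT. The dCasRx_NT libraries were the lowest and the RBFOX1N libraries the highest, with no overlap between effectors, an order that 1.06% of tested genes showed, although RBM25_MAPT replicate 2 came close to the control. JUN was 1.53-fold higher in RBM25_NT than in dCasRx_NT (log2 0.61, SE 0.16; edgeR adjusted p 0.0347) and 1.86-fold higher in RBFOX1N_NT (log2 0.89, SE 0.16; edgeR adjusted p 0.00352). The second passed in each of 18 other settings, and the first was lost without RBM25_NT replicate 1 (log2 0.39; edgeR adjusted p 0.301), dCasRx_NT replicate 2 (0.145) or dCasRx_NT replicate 1 (0.0505). It was also just over the threshold without any 1 of the 4 RBFOX1N libraries (0.0527 to 0.0601). Under the MAPT guide JUN was 1.48-fold higher with RBFOX1N-dCasRx-C (log2 0.57, SE 0.16; edgeR adjusted p 0.0222), which fell to 0.31 (adjusted p 0.154) without RBM25_MAPT replicate 2 and was 0.87 (0.000746) without replicate 1. Without RBFOX1N_MAPT replicate 1 or 2 the JUN difference was 0.61 and 0.53 and did not pass, in fits where fewer of all genes were called as well.

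JUNB was at 30.6 and 26.5 CPM in dCasRx_NT, 53.8 and 41.5 in RBM25_NT, 55.9 and 32.9 in RBM25_MAPT and 50.4 and 43.1 in RBM25_CD46. In RBFOX1N_NT it was at 49.0 and 47.0 CPM and in RBFOX1N_MAPT at 51.3 and 52.9. It was 1.67-fold higher in RBM25_NT than in dCasRx_NT (log2 0.74, SE 0.19; edgeR adjusted p 0.0335) and 1.68-fold higher in RBFOX1N_NT (log2 0.75, SE 0.19; edgeR adjusted p 0.0262). Without dCasRx_NT replicate 2 neither passed (log2 0.62 and 0.64; edgeR adjusted p 0.173 and 0.151), and without replicate 1 both did. The first was also lost without RBM25_NT replicate 1 (0.258) or any 1 of the 4 RBFOX1N libraries (0.053 to 0.0584), and the second without either RBFOX1N_NT library (0.124 and 0.115). All 10 fusion libraries lay above the dCasRx_NT pair, with RBM25_MAPT replicate 2 the nearest to it. The fused effectors were close to each other, with a log2 difference of 0.01 (95% interval -0.40 to 0.42) under the nontargeting guide.

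JUND, the steadily expressed member, was at 178 and 150 CPM in dCasRx_NT, 170 and 129 in RBM25_NT, 242 and 106 in RBM25_MAPT and 172 and 149 in RBM25_CD46. It was at 160 and 161 CPM in RBFOX1N_NT and at 190 and 181 in RBFOX1N_MAPT. The RBM25_MAPT libraries were the highest and the lowest of all 12, so the 6 RBM25 libraries spanned all others. No comparison of effectors passed for JUND, with log2 differences of -0.14, -0.03, 0.11 and 0.09 and 95% intervals that reached from -0.69 to 0.66. Under the MAPT guide its difference between the fused effectors went from -0.38 without RBM25_MAPT replicate 2 (edgeR adjusted p 0.0761) to 0.81 without replicate 1 (0.00148), so its sign turned with 1 library.

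The replicates of the JUN family genes differed most in RBM25_MAPT, the group with the strongest GC trend between replicates. Replicate 1 of RBM25_MAPT exceeded replicate 2 by 2.29-fold for JUND, 1.70-fold for JUNB and 1.47-fold for JUN, and in RBM25_NT by 1.32-, 1.29- and 1.35-fold. In the RBFOX1N groups these ratios lay between 0.957 and 1.06. The part of GC content in these ratios was not tested. In a fit with offsets that take out each library's trend with GC content, added after the data were seen, the same members were called in the comparisons with dCasRx_NT, and in RBM25_NT against dCasRx_NT the JUND difference moved from -0.14 (SE 0.259) to -0.36 (SE 0.116; edgeR adjusted p 0.0519).

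**Figure D4:**
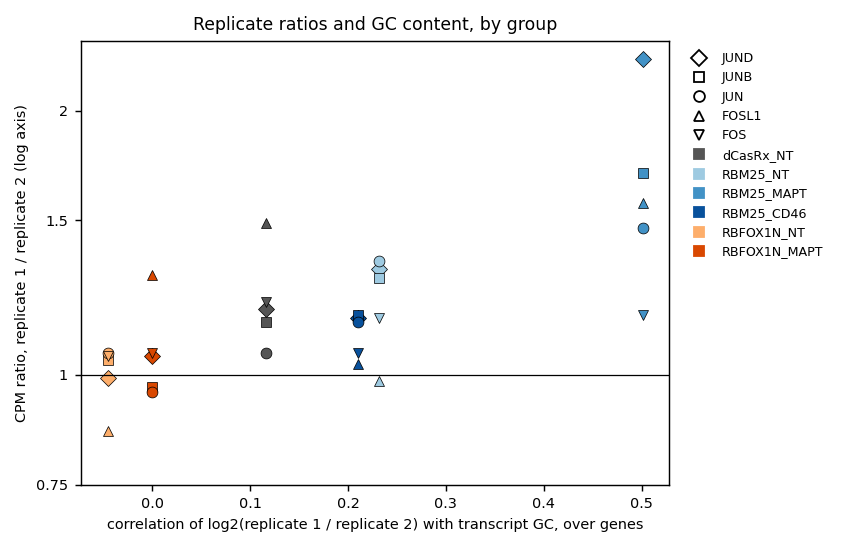
CPM of replicate 1 over replicate 2 (vertical log axis) for JUND, JUNB, JUN, FOSL1 and FOS against the correlation over genes of that log2 ratio with transcript GC content (horizontal axis), 1 point for each gene and group. RBM25_MAPT lies farthest right, at 0.501, with the JUND ratio of 2.29.

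An exact two-sided permutation test set the 4 RBFOX1N libraries, of 2 guides, against the 6 RBM25 libraries, of 3 guides; libraries with different guides are not replicates of 1 group. For FOSB, FOSL1, FOSL2 and JUN all 4 RBFOX1N libraries lay above all 6 RBM25 libraries, as they did for 16.6% of all tested genes. Counted in either direction, these libraries did not overlap for 31.1% of tested genes. The mean difference was 0.48, 1.68 and 1.17 (log2 CPM) for FOSB, FOSL1 and FOSL2, each at an exact permutation p of 0.00476, the smallest that 210 splits allow. That p follows from the separation of the libraries and treats libraries of different guides as exchangeable, so it adds no independent support. It was 0.42 for JUN (exact permutation p = 0.0143). For FOS, whose libraries overlapped, it was 0.23 (exact permutation p = 0.0381, and 0.0238 to 0.0952 with 1 library left out). For JUNB and JUND it was 0.13 and 0.15 (exact permutation p = 0.414 and 0.51). For FOS, JUN and JUNB all 10 fusion libraries lay above both dCasRx_NT libraries, an order that 5.99% of tested genes showed.

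Next, each targeting guide was set against the nontargeting one within an effector. No member passed for the MAPT guide with dCasRx-RBM25, the CD46 guide with dCasRx-RBM25 or the MAPT guide with RBFOX1N-dCasRx-C, where 0% of all 20593 genes were called in each by edgeR, while 1026, 487 and 418 genes had an unadjusted edgeR p below 0.05. FOSB came nearest, with 11.6 and 10.7 CPM in RBFOX1N_MAPT against 8.07 and 8.96 in RBFOX1N_NT (log2 0.39, SE 0.15; edgeR unadjusted p 0.0185, adjusted p 1). The other members differed by log2 values from -0.26 (FOSL1, MAPT guide with dCasRx-RBM25) to 0.22. No difference between effectors in the effect of the MAPT guide passed for any member (0% of genes called, 765 at an unadjusted p under 0.05 by edgeR). The widest interval among these interaction terms was that of JUND, -0.80 to 0.78 on the log2 scale. No member was called in these 4 comparisons in any of the 18 other settings. Over all genes the count of 0 did not hold throughout: DESeq2 called 5, 3, 0 and 1 genes and edgeR without the filter on low counts 67, 13, 1 and 18. Without RBM25_MAPT replicate 1, edgeR called 555 genes between RBM25_MAPT and RBM25_NT, 5 between RBM25_CD46 and RBM25_NT and 114 for the interaction, and without replicate 2 it called 17, 5 and 3.

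The splicing table held 68 events of the members, measured as percent spliced in (PSI): 14 each of FOS, FOSB and FOSL1 and 26 of FOSL2, with 0 for JUN, JUNB and JUND. Only 2 of the 68, both of FOSL1, had at least 20 reads in every library and 24 reads of the less used form. The others were too shallow or used 1 form almost alone. FOS is an example of the latter, since all 1221 reads at its alternative 3' splice site went to 1 of the 4 sites listed. No member event was called in the 8 comparisons by the quasi-binomial model, where 0.731% (RBM25_NT against dCasRx_NT), 1.14% (RBFOX1N_NT against dCasRx_NT), 1.67% and 1.84% (between the fused effectors under the nontargeting and MAPT guides), 0.000996% (MAPT guide with dCasRx-RBM25) and 0% (the 3 others) of 100383 events were called.

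The FOSL1 exon of 198 nt at 65896809 to 65897006 on chromosome 11 (hg38) is carried, as coding sequence, by 3 of 5 annotated coding transcripts. Its PSI was 81.5% and 76.7% in dCasRx_NT, 83.7% and 85.5% in RBM25_NT, 68.0% and 76.6% in RBM25_MAPT, 87.7% and 87.0% in RBM25_CD46, 87.7% and 92.3% in RBFOX1N_NT and 89.9% and 80.95% in RBFOX1N_MAPT. The lowest value, 68.0%, had a 95% Wilson interval of 54.7% to 78.9% from 54 reads and the highest, 92.3%, one of 87.2% to 95.5% from 163 reads; such intervals cover counting error only. The exon was 13.2 points higher in RBFOX1N_MAPT than in RBM25_MAPT and 10.98 points higher in RBFOX1N_NT than in dCasRx_NT, and neither passed (quasi-binomial adjusted p 0.16 and 0.199). The intron of 3234 nt that precedes the exon on the minus strand, at 65897007 to 65900240 was retained at 0% to 12.8%, with no call.

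With the minimum lowered to 10 reads, 7 member events could be tested and none was called. Among them was an intron of 1916 nt in FOSB, at 45468713 to 45470628 on chromosome 19, present in 5 of 11 annotated coding transcripts. It was retained at 7.69% and 8.70% in dCasRx_NT and at 17.2% to 35.3% in the 10 libraries with a fused effector. That order was shown by 3.89% of the 106728 events tested at this minimum; each value rests on 13 to 44 reads, and the difference of 21.0 points between RBFOX1N_NT and dCasRx_NT had a quasi-binomial adjusted p of 0.17. In FOSL2, an intron of 10284 nt was retained at 4.44% to 7.96% in the RBFOX1N libraries and at 0% to 2.63% in the 8 others, an order shown by 3.06% of those events, also without a call.

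**Figure D5:**
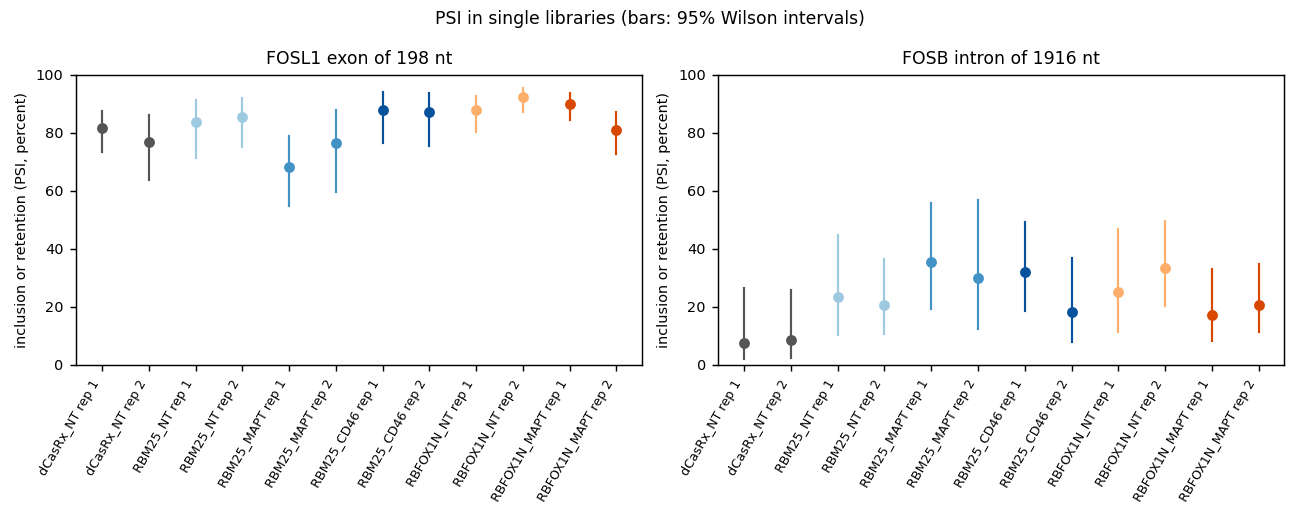
PSI (vertical axis, percent) of the FOSL1 exon of 198 nt and of the FOSB intron of 1916 nt in each library, with 95% Wilson intervals for counting error. The FOSB intron is at 7.69% and 8.70% in the dCasRx_NT libraries and at 17.2% or above in the 10 others, with wide intervals.

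Other genes of the pathway were taken from 4 lists, read against the shares of all genes called. These shares were 7.62% in RBM25_NT and 10.8% in RBFOX1N_NT against dCasRx_NT. Between the fused effectors they were 16.7% under the nontargeting guide and 22.6% under the MAPT guide. Of 14 tested bZIP genes that can pair with AP-1 members or share their sites, 1 was higher in RBM25_NT than in dCasRx_NT (MAF), 3 were higher in RBFOX1N_NT than in dCasRx_NT, and between the fused effectors 5 were higher and 2 lower under the nontargeting guide and 6 higher and 1 lower under the MAPT guide. ATF3, a stress-induced partner of JUN, was at 218 ± 13.6 CPM in RBFOX1N_NT and 128 ± 2.09 in RBM25_NT (SD, n = 2; log2 0.77, SE 0.09; edgeR adjusted p 0.000108). MAF went the other way, with 42.5 ± 0.383 CPM in RBFOX1N_NT and 80.6 ± 8.04 in RBM25_NT (log2 -0.92, SE 0.11; edgeR adjusted p 0.000131). Fewer of the 7 called under the nontargeting guide passed without RBFOX1N_NT replicate 2, a fit in which fewer of all genes were called as well. The list medians of the 4 comparisons were 0.03, 0.21, 0.16 and 0.29 on the log2 scale, beside 0.01, -0.01, -0.01 and -0.01 over all genes.

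Of 20 kinases and factors that act upstream of FOS and JUN, 1 was higher in RBM25_NT (MRTFA) and 6 in RBFOX1N_NT than in dCasRx_NT, with 0 lower. Of all genes, 7.62% and 10.8% were called there. Between the fused effectors 5 were higher and 3 lower with RBFOX1N-dCasRx-C under the nontargeting guide, and 6 higher and 3 lower under the MAPT guide, where 16.7% and 22.6% of all genes were called. SRF, which binds the serum response element of FOS, was at 213 ± 5.79 CPM in RBFOX1N_NT and 138 ± 6.23 in dCasRx_NT (SD, n = 2; log2 0.62, SE 0.09; edgeR adjusted p 0.00112). In the same comparison MEF2D, which binds the JUN promoter, rose by 0.76 (SE 0.11) and MAPK7, the kinase ERK5 that activates MEF2 factors, by 0.74 (SE 0.12; edgeR adjusted p 0.000982 and 0.00151). ELK4, an SRF partner, was lower in RBFOX1N_NT than in RBM25_NT (log2 -0.49, SE 0.13; edgeR adjusted p 0.0201). Fewer than the 6 called against dCasRx_NT passed without dCasRx_NT replicate 2 or either RBFOX1N_NT library. Fewer than the 8 called between the fused effectors passed without RBFOX1N_NT replicate 1. In these fits fewer of all genes were called as well. The list medians were 0.05, 0.01, 0.02 and -0.05.

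Of 15 genes that restrain AP-1, among them MAP kinase phosphatases (DUSP genes) and mRNA-decay factors (ZFP36 genes), 1 was higher in RBM25_NT (ZFP36L1) and 8 in RBFOX1N_NT than in dCasRx_NT, with 0 lower. Of all genes, 7.62% and 10.8% were called there. The count of 8 fell without dCasRx_NT replicate 2 or either RBFOX1N_NT library, as did the count over all genes. DUSP8, a phosphatase of the JNK and p38 kinases, was at 122 ± 9.77 CPM in RBFOX1N_NT, 65.1 ± 8.58 in dCasRx_NT and 58.3 ± 7.54 in RBM25_NT (SD, n = 2). DUSP1, an immediate early gene itself, was at 60.01 ± 6.04, 37.5 ± 4.10 and 35.7 ± 3.43 CPM in the same order. DUSP6 and DUSP4, which act mainly on ERK, went the other way between the fused effectors. Their log2 differences in RBFOX1N_NT against RBM25_NT were -1.10 and -0.57 (SE 0.27 and 0.14, edgeR adjusted p 0.0158 and 0.0142). Both were low, DUSP6 at 0.595 CPM in RBFOX1N_NT and 1.27 in RBM25_NT, and DUSP4 at 5.54 and 8.195. In that comparison, where 16.7% of all genes were called, 5 of the list were higher and 2 lower, and under the MAPT guide (22.6%) 7 and 3. The total of 7 fell without RBFOX1N_NT replicate 2 and that of 10 without either RBFOX1N_MAPT library, as did the counts over all genes. The list medians were 0.15, 0.49, 0.31 and 0.20.

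Of 24 genes known as AP-1 targets, 20 were tested. Of these, 0 were called in RBM25_NT and 4 were higher in RBFOX1N_NT than in dCasRx_NT, where 7.62% and 10.8% of all genes were called. Between the fused effectors, for which target counts follow, 16.7% of all genes were called under the nontargeting guide and 22.6% under the MAPT guide. HMOX1, which codes for heme oxygenase and is also a target of NRF2, was at 449 ± 25.3 CPM in RBFOX1N_NT, 56.5 ± 6.22 in dCasRx_NT and 56.6 ± 4.68 in RBM25_NT (SD, n = 2). LIF, a cytokine of the interleukin 6 family, was at 54.2 ± 4.02, 19.0 ± 1.59 and 15.1 ± 2.07 CPM in the same order. Their log2 differences between RBFOX1N_NT and RBM25_NT were 2.99 and 1.84 (SE 0.11 and 0.12; edgeR adjusted p 3.09e-09 and 1.04e-06). VEGFA was lower there (log2 -0.40, SE 0.12; edgeR adjusted p 0.0363). In all, 3 targets were higher and 1 lower between the fused effectors under the nontargeting guide, and 6 and 1 under the MAPT guide. The total of 7 fell without RBFOX1N_MAPT replicate 2, as did the count over all genes. The 0 called in RBM25_NT rose without RBM25_MAPT replicate 1 or 2, as did the count over all genes. The list medians were 0.00, 0.16, 0.22 and 0.40. No list gene was called for a guide.

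Over the 12 libraries, JUN ran with JUNB (Pearson r of log2 CPM 0.918) and FOS (0.872), FOS with JUNB (0.868), and FOSL1 with FOSL2 (0.883), FOSL2 with FOSB (0.855) and FOSL1 with FOSB (0.816). JUND ran with no member above 0.543. These values describe 12 libraries that share 3 effectors, their depth and their GC trends. Among the genes outside the family most like FOS were RETREG3, NFE2L1, KAT5 and BRD2 (r = 0.953 to 0.962). Most like JUN were SEMA4C (0.98), FZD2, WDR24, IRF2BP2 and RNF135. FOSL1 was most like ZNF513 (0.982), SPHK2, B4GALT7, ABCB8 and MOB3A. FOSL2 was most like ENSG00000276791 (0.987), PPP1R10 (0.985), ZMYM3, BCL7B and SLC25A25, and PPP1R10 stood at 116, 117 and 356 CPM in dCasRx_NT, RBM25_NT and RBFOX1N_NT. Likeness was ranked among 11436 genes with a mean of at least 5 CPM.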

How the data were processed

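The submitters' processing notes name STAR 2.7.10, edgeR and the build hg38; no source read for this work gave the annotation, the strand setting or the vast-tools version. The authors deposited raw read counts for 62710 Ensembl genes and, per the file headers, a vast-tools table of 721551 events with percent spliced in (PSI) and a quality field holding corrected inclusion and exclusion reads per library; the deposited percent lay within 0.05 points of the reads' PSI in 100% of 1204596 values. Each of the 36 data columns was matched to a library by name.

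For the counts, the quasi-likelihood test of edgeR 4.0.16 (R 4.3.3) was run after TMM scaling and filterByExpr by group, in 1 fit of 6 group means over 12 libraries and 20593 genes, called at a Benjamini-Hochberg adjusted p of 0.05. The common biological coefficient of variation was 0.0977. CPM use TMM-scaled totals; CPM per kb divides by the union of exons (GENCODE 29). Splicing used a quasi-binomial model (Pearson dispersion moderated with 9.91 prior degrees of freedom, floor 1), called at an adjusted p of 0.05 and 10 points. On 1 simulated set each, edgeR recovered most changes put in, with a share of false calls above its nominal level, and the splicing model recovered a minority. The splicing changes were put into well-covered events of intermediate PSI, unlike the member events, so that recovery does not carry over to them. With their few reads, uncalled member events say little. Gene names were found for 62639 identifiers. Intervals of fold changes are 95% intervals from the fit. Alternatives were DESeq2 1.42.0, RLE factors, no filter, only the groups compared, a replicate block, each library left out and, added later, GC-adjusted offsets. Same-numbered libraries showed little shared deviation over all genes (15 pairs, r -0.098 to 0.166, 2 above 0.1), and the main fit did not pair them. Such a correlation cannot exclude an effect shared by replicate number in part of the genes. The replicate block raised the calls over all genes in each comparison of effectors, from 1570 to 1966 for RBM25_NT against dCasRx_NT.

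The members and lists were chosen with earlier results of these data known. Named genes are the 7 members; of each list, called genes with the largest change, at most 4 a direction; and for members called in at least 3 comparisons, and FOS and JUN, the 5 most correlated genes. Some genes that this rule names are not reported here.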

Additional observations from a re-analysis of the deposited data

How the results depend on the processing

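The calls that kept their threshold in all 18 other settings were FOSL2 in its 3 comparisons, FOSL1 between the fused effectors under either guide, and JUN in RBFOX1N_NT against dCasRx_NT. The counts of members called moved most against dCasRx_NT. For RBM25_NT against dCasRx_NT the count of 4 was 1 when the other 4 groups were left out of the fit and 0 to 4 with 1 library left out, and for RBFOX1N_NT against dCasRx_NT the count of 5 was 2 to 5 with 1 library left out. Under the MAPT guide the count of 4 between the fused effectors was 2 to 6 with 1 library left out; the 6 came without RBM25_MAPT replicate 1, and the 2 without its replicate 2 or RBFOX1N_MAPT replicate 1. Over all genes, more were called without RBM25_MAPT replicate 1 and fewer without its replicate 2 or RBFOX1N_MAPT replicate 1. The cause was not tested. Between RBFOX1N_NT and RBM25_NT the count was 2 or 3 in all settings.

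No called value changed sign. Uncalled values that did were, with 1 library left out, in RBM25_NT against dCasRx_NT FOSB (-0.414 to 0.0503), FOSL2 (-0.0616 to 0.142) and JUND (-0.338 to 0.0547); in RBFOX1N_NT against dCasRx_NT JUND (-0.16 to 0.11); in RBFOX1N_NT against RBM25_NT JUNB (-0.17 to 0.20) and JUND (-0.0812 to 0.312); and under the MAPT guide JUNB (-0.10 to 0.66) and JUND (-0.38 to 0.81). With GC-adjusted offsets FOSL2 went to -0.0118 in RBM25_NT against dCasRx_NT and JUND to -0.10 under the MAPT guide, and with no filter JUNB went to -0.0133 in RBFOX1N_NT against RBM25_NT. All of these are log2 fold changes.

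With the replicate number as a block, edgeR called 4, 5, 2 and 4 members in the 4 comparisons of effectors, the counts of the fit without it, and 0 for the guides; the block changed no member's call. The splicing count stayed at 0 in every setting run. In the permutation test 4 or 5 members were under 0.05 with 1 library left out, FOS being the member that was lost. That test was run on the members only, so the share of all genes under 0.05 was not counted. Over all genes the count called in RBM25_NT against dCasRx_NT was 1570; it ranged from 368 (RBM25_NT replicate 1 left out) to 3000 (GC-adjusted offsets). Depth limits FOSL1, with as few as 109 counts in a library, and the splicing events, most of which had too few reads to be tested.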
